A study of Mus musculus with 12 samples.

Results

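The proteins of the mitochondrial ribosome were followed here through testis RNA of mice given a blueberry extract. The members were the protein-coding genes whose symbol starts with Mrpl or Mrps followed by a digit, with names ending in -ps left out. The rule found 78 of the 21959 genes in the count table, by symbol alone. The animals were wild-type male ICR mice, an outbred laboratory stock, dosed from 8 months of age and collected at 9 months, with no young animals among the groups. Physiological saline, or the extract (BBE) at 50, 100 or 200 mg/kg per day, was given through a stomach tube. Each of the 4 groups had 3 libraries of polyadenylated testis RNA, 12 in all, and all of them carried the same batch label. The study set out, by its title, to learn whether the extract helps sperm motility that declines with age by easing inflammation. Nothing says that the libraries of a group came from different animals, and p-values therefore reflect variation among libraries that may be technical.

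The mitochondrial ribosome translates the few messages that mitochondrial DNA encodes, all of which in mammals specify subunits of the oxidative phosphorylation complexes. Its own proteins are encoded in the nucleus, made in the cytosol and imported, and they join ribosomal RNA from mitochondrial DNA to form a large and a small subunit. Many have counterparts in bacterial ribosomes, and others were added in mitochondria. Symbols and structure do not always match. Mrps18a and Mrps30 carry small-subunit names but sit in the large subunit. Mrps36 was named as a ribosomal protein and is now known as a subunit of the α-ketoglutarate dehydrogenase complex of the citric acid cycle. Counted by structure, the members comprised 51 proteins of the large subunit, 26 of the small subunit and Mrps36. Of the ribosomal proteins, 48 have a bacterial counterpart and 29 are specific to mitochondria.

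Library totals lay between 14382378 and 19118265 counts, and 15682 genes passed the filter on low counts. The 100 mg/kg libraries stood apart, with 52.4% of genes called against saline, where 17.2% were called at 50 mg/kg and 18.6% at 200 mg/kg. Library 3 of 100 mg/kg also stood apart from its own group. Its chi-square per degree of freedom was 11.8 against library 1 and 7.87 against library 2, where other pairs within groups ran from 1.56 to 3.02. Markers of testis cells were present, while 7 epididymis markers summed to 9.26 to 10.8 CPM (counts scaled to the effective library size) at 100 mg/kg and 8.52 to 9.04 CPM in saline. In the 100 mg/kg libraries fold changes also followed transcript length, with a Spearman rho across 15655 genes of -0.467, and the members are short, with a median longest transcript of 1866 bases against 2898 for all protein-coding genes. Results at 100 mg/kg are therefore given with and without library 3 and by length class.

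Of the 78 members, 77 passed the filter on low counts. Mrpl53 was listed at 0 counts in all 12 libraries, and its exons overlap Gm42688 on the same strand. In the smallest library, 0 counts allow a level of up to 0.209 CPM, for counting error only. Members are spread over 17 chromosomes. Exons of 22 members overlap another gene of the table, 18 of them on the opposite strand only. The use of strand in counting is unknown, so values of these 22 are uncertain. Pseudogenes of Mrpl23, Mrpl48 and Mrps36 are annotated, and reads could be shared with them.

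Levels of the tested members spanned a wide range, from a mean over all libraries of 1.24 CPM for Mrps34 to 172 CPM for Mrpl39. Per kilobase of the longest transcript, Mrpl20, Mrpl39 and Mrpl54 were the most abundant, at 80.0, 75.1 and 72.8 CPM per kilobase. The first of these is a conserved protein that binds ribosomal RNA, and the other pair is specific to mitochondria. At the low end stood Mrps34 with 0.656 CPM per kilobase and Mrpl33 with 0.918 CPM per kilobase. The median of the 78 members was 9.76 CPM per kilobase. With the median length of coding transcripts in place of the longest it was 18.2 CPM per kilobase, and Mrpl20, Mrpl11 and Mrpl30 then led. Mrpl33 was then at 5.26 CPM per kilobase and Mrpl19, at 1.69 CPM per kilobase, was the lowest tested member after Mrps34. Mrpl20 and Mrps34 kept their ranks under both lengths.

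The summed level of the members was higher at 100 mg/kg than in any other group. It was 2109, 2118 and 2143 CPM in the saline libraries, 2151, 2045 and 2081 CPM at 50 mg/kg, 2495, 2605 and 2851 CPM at 100 mg/kg and 2045, 2018 and 2049 CPM at 200 mg/kg. The 3 libraries of 100 mg/kg lay above all other 9, by 17.5 to 34.3% of the saline mean, and library 3 was the highest. Both subunits showed it. The large subunit summed to 1915, 2004 and 2191 CPM at 100 mg/kg, against 1650, 1659 and 1665 CPM in saline. The small subunit summed to 539, 562 and 611 CPM at 100 mg/kg, against 431, 433 and 453 CPM in saline. In bulk tissue, fewer cells of a type and less RNA per cell cannot be told apart, and the same holds for more.

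**Figure D1:**
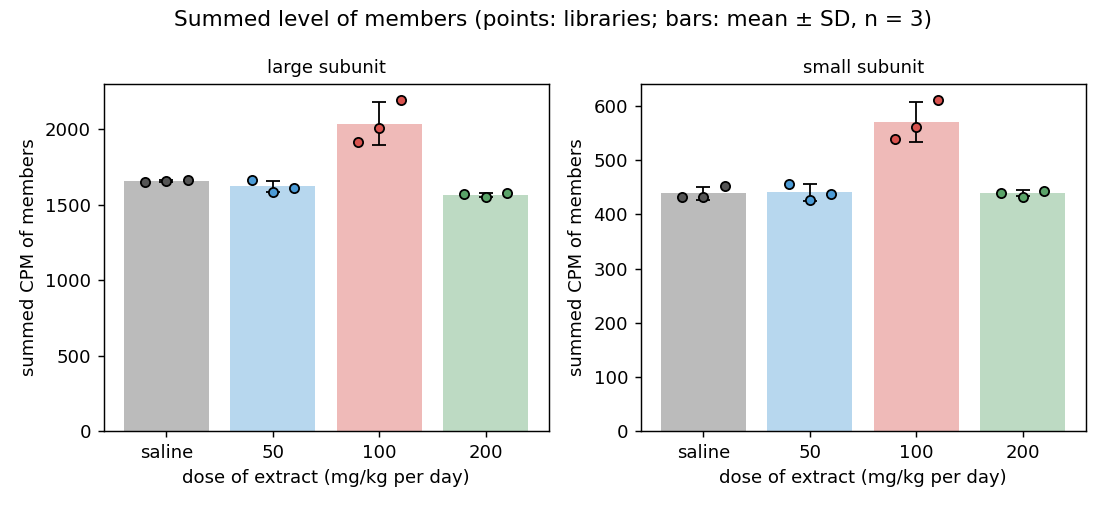
Summed CPM of the large-subunit members (left) and small-subunit members (right) by dose of extract in mg/kg per day, with points for single libraries and bars for the mean ± SD of 3 libraries. The 3 libraries at 100 mg/kg lie above all others in both panels, from 1915 to 2191 CPM on the left and from 539 to 611 CPM on the right.

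The 100 mg/kg dose was set against saline to ask what it changed. Of the 77 members tested, 58 rose and 1 fell in edgeR's quasi-likelihood test with Benjamini-Hochberg adjustment over all genes. Over all 15682 genes, 25.6% rose and 26.8% fell, so rises were far more frequent among members and falls far less frequent. The changes were small. The median log2 fold change of members was 0.35, against 0.0086 for all genes tested. Of the 77 members, 12 rose more than 1.5-fold, while 15.6% of all genes were called with a change over 1.5-fold in either direction. Libraries of 100 mg/kg and saline did not overlap in 61 members, 60 of them higher and 1 lower at 100 mg/kg, where 28.9% and 29.9% of all genes separated in these directions. In 55 members the 100 mg/kg libraries lay above all other 9, and the share of all genes that did so was not counted.

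**Figure D2:**
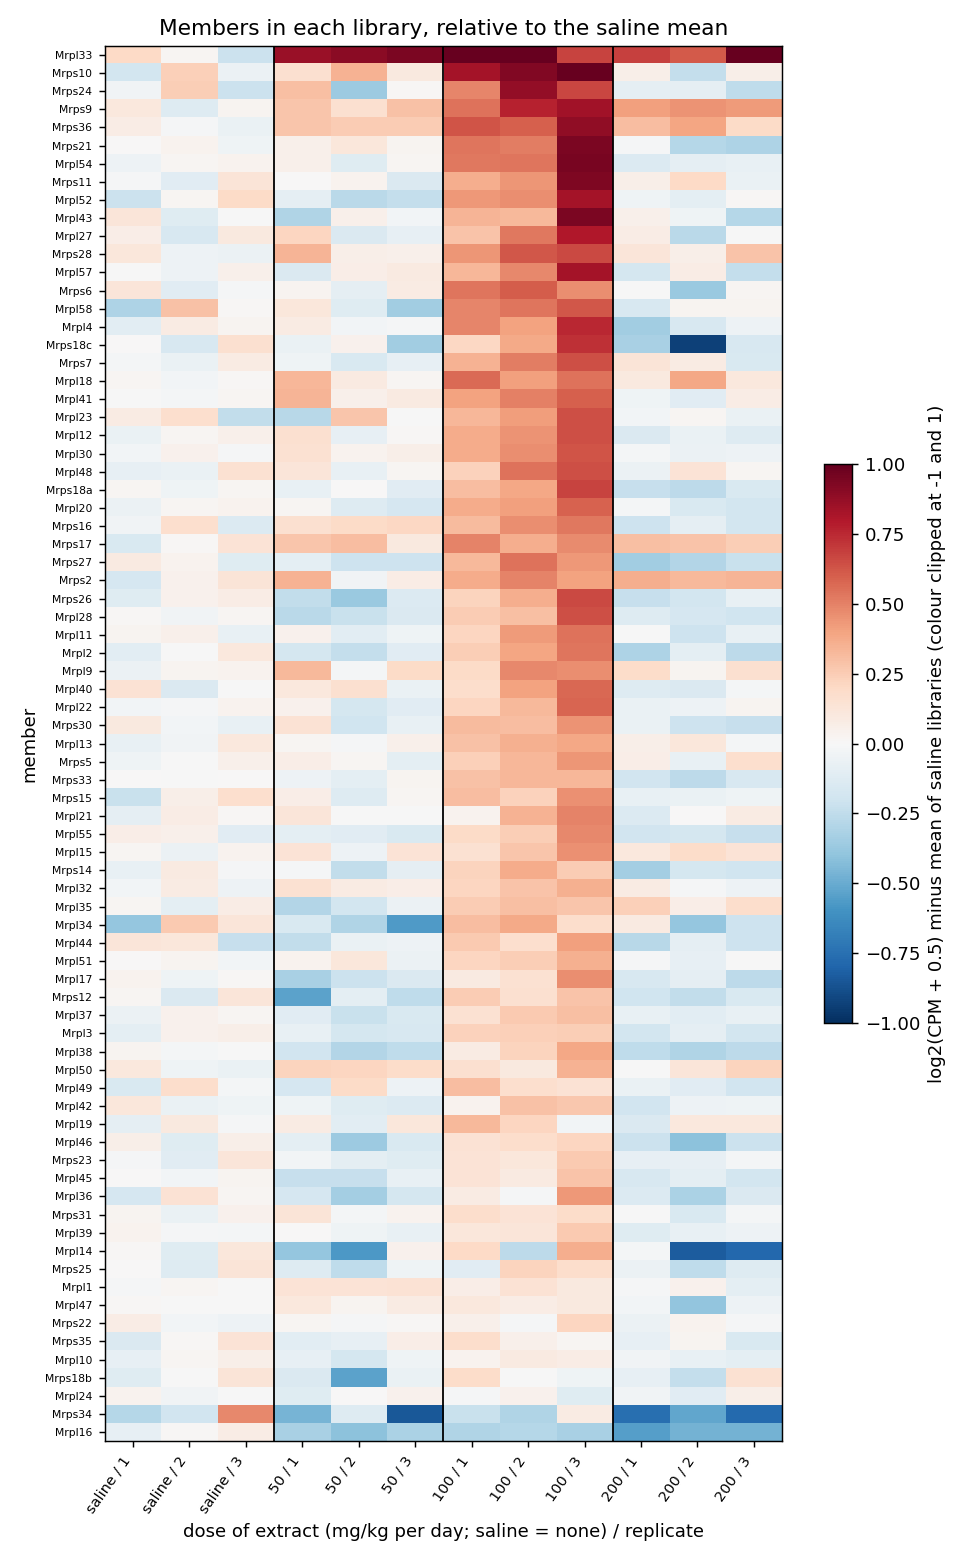
Each row is a tested member and each column a library, ordered by dose; colour gives log2(CPM + 0.5) minus the mean of the saline libraries, and rows are sorted by the fold change at 100 mg/kg. The 100 mg/kg columns are red for most of the 77 members, most deeply in library 3, while the columns of 50 and 200 mg/kg are mostly pale, with Mrpl33, Mrps9 and Mrps36 red and Mrpl16 blue in each of them.

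Library 3 of 100 mg/kg carried the highest value of all 12 libraries in 53 of the 77 members, and the share of all genes was not counted. Without that library, 52 members rose and 1 fell, where 23.1% and 23.8% of all genes did (46.9% in all), and the median log2 fold change was 0.31.

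Rises at 100 mg/kg were found in every structural class. In the large subunit 38 of 50 tested members rose and 1 fell, with a median log2 fold change of 0.31. In the small subunit 19 of 26 rose, with a median of 0.43. Of the proteins with a bacterial counterpart 37 of 48 rose and 1 fell, and of those specific to mitochondria 20 of 28 rose. Among members whose exons overlap no other gene, 46 of 56 rose and 1 fell, and among the overlapping members 12 of 21 rose. Over all genes 25.6% rose and 26.8% fell. Among all genes below 1000 bases 60.0% rose, and from 1000 to 2000 bases 46.2% did. The values of these classes are as counted, with the length trend left in, and differences between the classes were not tested.

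The largest of these rises in the small subunit was in Mrps10, which encodes uS10m, a conserved protein of the subunit head. The gene (ENSMUSG00000034729, GRCm38 chromosome 17, 47368887 to 47381417) was at 16.3, 17.5 and 19.1 CPM at 100 mg/kg, against 7.84, 10.7 and 8.55 CPM in saline. All 3 treated libraries were above all saline libraries, a 1.95-fold rise (log2 fold change 0.96 ± 0.12 SE, adjusted p = 2.88e-07). Mrps10 was at 10.1, 11.5 and 9.64 CPM at 50 mg/kg and at 9.36, 7.52 and 9.32 CPM at 200 mg/kg, which overlapped saline at both doses. Mrpl54, a mitochondria-specific protein of the large subunit (ENSMUSG00000034932, chromosome 10, 81264713 to 81266934), was at 56.0, 56.4 and 75.3 CPM at 100 mg/kg and at 37.4, 39.3 and 39.8 CPM in saline. It rose 1.61-fold (log2 0.69 ± 0.086 SE, adjusted p = 7.87e-07), with library 3 well above the other treated libraries, and by 0.54 on the log2 scale without that library. With the length trend removed from each library, as described below for all members, the rise of this short transcript of 604 bases was 0.28 ± 0.061 SE. Mrpl30, a conserved large-subunit protein, rose 1.41-fold and Mrpl20 1.38-fold at the same dose, and with the length trend removed their log2 fold changes were 0.32 and 0.11, the second no longer called.

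The stalk at the entry of the large subunit recruits translation factors through copies of Mrpl12. Mrpl12 was at 62.4, 65.9 and 75.7 CPM at 100 mg/kg, against 46.0, 48.8 and 49.8 CPM in saline, without overlap, and rose 1.41-fold (log2 0.50 ± 0.070 SE, adjusted p = 2.35e-06), or 0.24 ± 0.056 SE on the log2 scale with the length trend removed. Mrpl11, at the base of the stalk, rose 1.32-fold. Mrpl10, which anchors the Mrpl12 copies, did not pass, at 18.2, 18.9 and 18.7 CPM at 100 mg/kg against 16.8, 18.0 and 18.5 CPM in saline. Its groups overlapped, with a log2 fold change of 0.07 ± 0.080 SE (adjusted p = 0.516). The central protuberance in mitochondria is built from proteins and a tRNA in place of 5S ribosomal RNA. There 6 of 7 members rose as counted, where 25.6% of all genes did. Mrpl58, a peptidyl-tRNA hydrolase built into that region, rose 1.48-fold, and Mrpl46, which lies on the opposite strand over Mrps11, was the member that did not pass (log2 0.18 ± 0.090 SE, adjusted p = 0.0951).

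Where 25.6% of all genes rose as counted, 4 of 6 members at the exit of the peptide tunnel did. The best known of them, Mrpl45, tethers the ribosome to the inner membrane, and its rise was 1.13-fold with an adjusted p of 0.0478. That call was lost without 11 of the 12 libraries, all but library 2 of 100 mg/kg, with adjusted p-values up to 0.197. Mrpl24, also at the tunnel exit, was among 3 members with a negative log2 fold change at 100 mg/kg, at 59.4, 62.0 and 55.2 CPM against 61.4, 58.7 and 60.0 CPM in saline. These libraries overlapped (log2 -0.03 ± 0.061 SE, adjusted p = 0.738).

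The 3 relatives of bacterial S18 differed in their results. Mrps18a, the copy in the large subunit, was at 37.3, 39.4 and 48.2 CPM at 100 mg/kg, against 30.4, 29.2 and 30.5 CPM in saline, and rose 1.39-fold without overlap. Mrps18c, the copy at the bacterial position, was scarce, with 2.91, 3.32 and 4.39 CPM at 100 mg/kg against 2.45, 2.13 and 2.79 CPM in saline. Its adjusted p was 0.0494, and the call was lost without any 1 of 9 libraries, with adjusted p-values up to 0.228: all but library 1 of 100 mg/kg and libraries 2 and 3 of 200 mg/kg. Mrps18b did not pass, with a log2 fold change of 0.05 ± 0.12 SE (adjusted p = 0.772). Mrps30, another large-subunit protein with a small-subunit name, rose 1.29-fold. Mrps12, which lies in the decoding centre of the ribosome, did not pass at 1.18-fold (adjusted p = 0.103). The nuclease-like protein Mrpl44 passed at 1.21-fold (adjusted p = 0.0397). Its call was lost without library 3 of saline, 2 or 3 of 50 mg/kg, 1 or 3 of 100 mg/kg or 2 of 200 mg/kg, with adjusted p-values up to 0.277.

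Transcript length had to be set beside these counts, because short genes of all kinds were higher at 100 mg/kg. Below 1000 bases, 12 of 16 members rose, and 60.0% of all genes in that class did. From 1000 to 2000 bases, 17 of 24 members rose against 46.2% of all genes. From 2000 to 4000 bases, 21 of 26 members rose and 1 fell against 24.6% and 21.1% of all genes. At 4000 bases and above 8 of 11 members rose, while only 11.2% of all genes rose and 46.8% fell. The median log2 fold change of members stayed between 0.28 and 0.52 over the 4 length classes. That of all genes ranged from 0.38 in the shortest to -0.22 in the longest class. These classes use the longest annotated transcript, which can be far longer than the coding transcripts of a gene. For Mrps17 it is 5061 bases against a median coding length of 851, and for Mrps10 4090 against 1018. By median coding length such members would fall in shorter classes, where more of all genes rose. Classes by that length were not made.

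With the length trend taken out of every library, 40 members rose and 2 fell at 100 mg/kg, where 23.5% and 22.7% of all genes did. The median log2 fold change of members was 0.24. Of the 58 members that rose as counted, 37 rose here too. Mrpl1, Mrpl19 and Mrps25 joined them, and Mrpl24 joined Mrpl16 among the members that fell. The corrected rises lay mainly in members whose longest transcript is long. They were 10 of 11 at 4000 bases and above and 19 of 26 from 2000 to 4000 bases. From 1000 to 2000 bases they were 6 of 24, and below 1000 bases 5 of 16. The trend, like the classes, was based on the longest transcript. No other length was tried, so the corrected counts and their order by class may depend on that choice. Among the members named here, Mrpl20, Mrpl39, Mrpl44, Mrpl45 and Mrps18c were no longer called, and Mrpl38 changed sign. Taking out library 3 of 100 mg/kg as well left 40 rises and 2 falls, against 20.6% and 20.3% of all genes, with a median of 0.20. In DESeq2, with no length correction, the rises of Mrps18c, Mrpl45 and Mrpl44 at 100 mg/kg did not pass, at adjusted p-values of 0.105, 0.0887 and 0.0777, nor did the fall of Mrpl37 at 50 mg/kg.

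**Figure D3:**
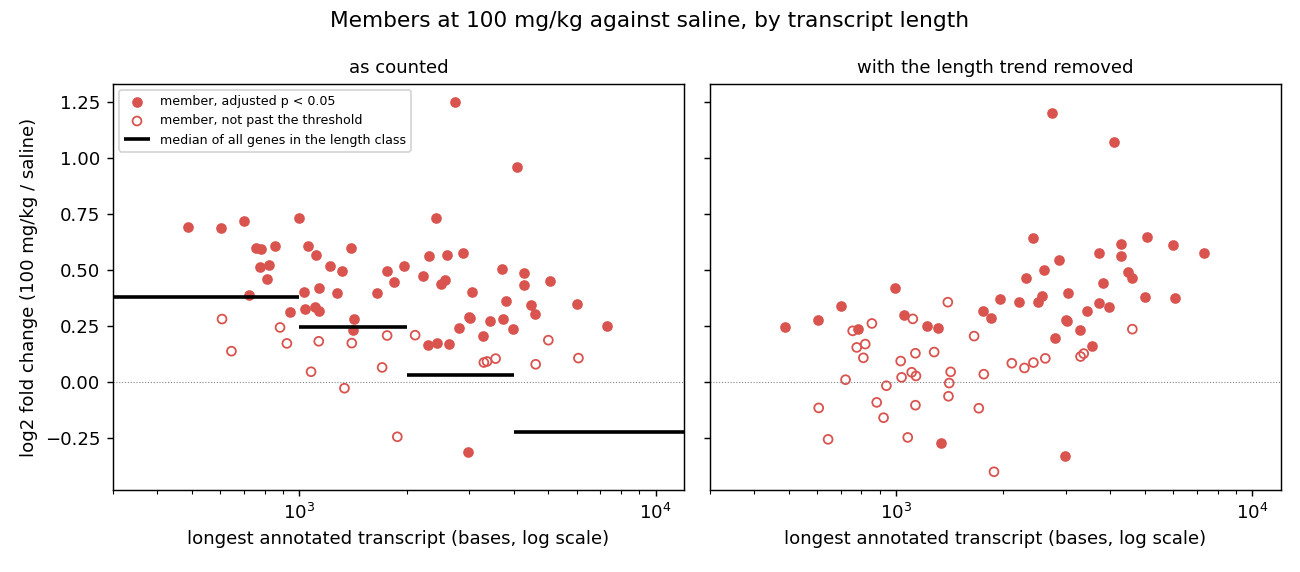
Log2 fold change of the 77 tested members at 100 mg/kg against saline, plotted over the length of the longest annotated transcript in bases (log scale), as counted (left) and with the length trend removed from each library (right); filled points passed the threshold and black bars give the median of all genes in each length class. The member medians, 0.52, 0.36, 0.28 and 0.34 from the shortest class to the longest, lie above the bars on the left, while single members such as Mrpl16 and Mrpl24 lie below theirs, and on the right the points that pass are mostly those of longer transcripts.

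The 50 and 200 mg/kg doses were set against saline in the same way, with little change in the members at either. At 50 mg/kg, 3 members rose and 3 fell, where 9.21% and 8.02% of all genes did. The median log2 fold change of members was -0.034. At 200 mg/kg, 5 members rose and 6 fell, against 10.3% and 8.3% of all genes, and the median was -0.088. These shares are near or below those of all genes. The counts moved with single libraries. At 50 mg/kg 1 member rose without library 2 of saline or 1 of 50 mg/kg, and 5 rose and 6 fell without library 3 of 100 mg/kg. At 200 mg/kg 3 rose without library 1 of saline or any library of 200 mg/kg, while 10 fell without library 3 of 100 mg/kg, 3 without library 1 of 200 mg/kg and 2 without library 3 of 200 mg/kg. At 200 mg/kg 59 of 77 log2 fold changes of members were below 0, and the share of all genes below 0 was not counted. Short genes of all kinds leaned lower at this dose. The median log2 fold change over all genes was -0.061 below 1000 bases and -0.041 from 1000 to 2000 bases. With the length trend removed, 24 of the 77 members were above 0.

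**Figure D4:**
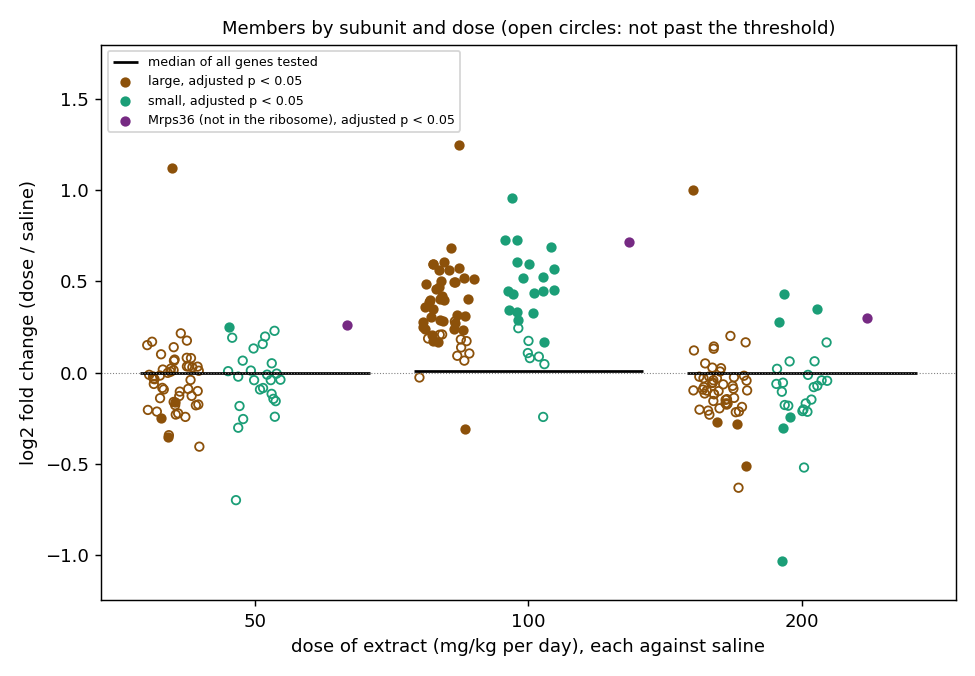
Log2 fold change of each tested member at 50, 100 and 200 mg/kg per day, each against saline, for large-subunit members, small-subunit members and Mrps36; filled points passed the threshold and the black bar is the median of all genes tested. Points at 100 mg/kg lie around a median of 0.35, well above the bar at 0.0086, while those of 50 and 200 mg/kg scatter around medians of -0.034 and -0.088.

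Only 4 members passed in the same direction at all 3 doses, and the comparisons share the saline libraries. Mrps9 encodes uS9m, a conserved protein of the small-subunit head (ENSMUSG00000060679, chromosome 1, 42851233 to 42905683). It was at 32.5, 27.6 and 30.8 CPM in saline, 36.8, 33.9 and 37.0 CPM at 50 mg/kg, 44.2, 51.8 and 54.5 CPM at 100 mg/kg and 40.2, 41.4 and 40.8 CPM at 200 mg/kg. No treated library overlapped saline, and the 100 mg/kg group was the highest. Its log2 fold changes were 0.25 ± 0.078, 0.73 ± 0.075 and 0.43 ± 0.077 SE at 50, 100 and 200 mg/kg (adjusted p = 0.0287, 3.12e-08 and 2.99e-04). The call at 50 mg/kg was lost without library 2 or 3 of saline or library 1 or 3 of 50 mg/kg, with adjusted p-values up to 0.177.

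Mrps36, the dehydrogenase subunit (ENSMUSG00000061474, chromosome 13, 100735955 to 100744659), followed the same course. It was at 27.6, 26.1 and 25.1 CPM in saline, 31.9, 31.4 and 31.4 CPM at 50 mg/kg, 40.9, 40.0 and 49.1 CPM at 100 mg/kg and 32.6, 34.7 and 30.1 CPM at 200 mg/kg. Every treated library was above every saline library. Its log2 fold changes were 0.26, 0.72 and 0.30 (adjusted p = 0.0241, 5.82e-08 and 0.0100). Without the length trend the value at 100 mg/kg was 0.34 ± 0.069 SE. The call at 50 mg/kg was lost without library 2 or 3 of saline or any library of 50 mg/kg, with adjusted p-values up to 0.107, and that at 200 mg/kg without library 3 of saline or 2 of 200 mg/kg, with adjusted p-values up to 0.0605. Mrpl33, a small conserved large-subunit protein (ENSMUSG00000106918, chromosome 5, 31596935 to 31664384), had the largest fold change of any member at 50 and 100 mg/kg, from few counts. It was at 1.59, 1.35 and 1.07 CPM in saline, 2.82, 2.91 and 3.01 CPM at 50 mg/kg, 3.26, 3.80 and 2.41 CPM at 100 mg/kg and 2.43, 2.30 and 3.26 CPM at 200 mg/kg. Its rises were 2.18-fold, 2.37-fold and 2.00-fold without overlap, with fewest counts in a library at 18.

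Mrpl16 was the member that fell at every dose. It encodes uL16m, a conserved protein near the tRNA sites of the large subunit (ENSMUSG00000024683, chromosome 19, 11770391 to 11774960). It was at 25.3, 27.0 and 28.3 CPM in saline, 21.3, 20.1 and 21.5 CPM at 50 mg/kg, 21.7, 21.9 and 21.3 CPM at 100 mg/kg and 18.2, 19.2 and 19.2 CPM at 200 mg/kg. All 9 treated libraries lay below all saline libraries. Its log2 fold changes were -0.36 ± 0.073, -0.31 ± 0.072 and -0.51 ± 0.074 SE (adjusted p = 0.00129, 8.52e-04 and 2.73e-05), and each call held without any single library.

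**Figure D5:**
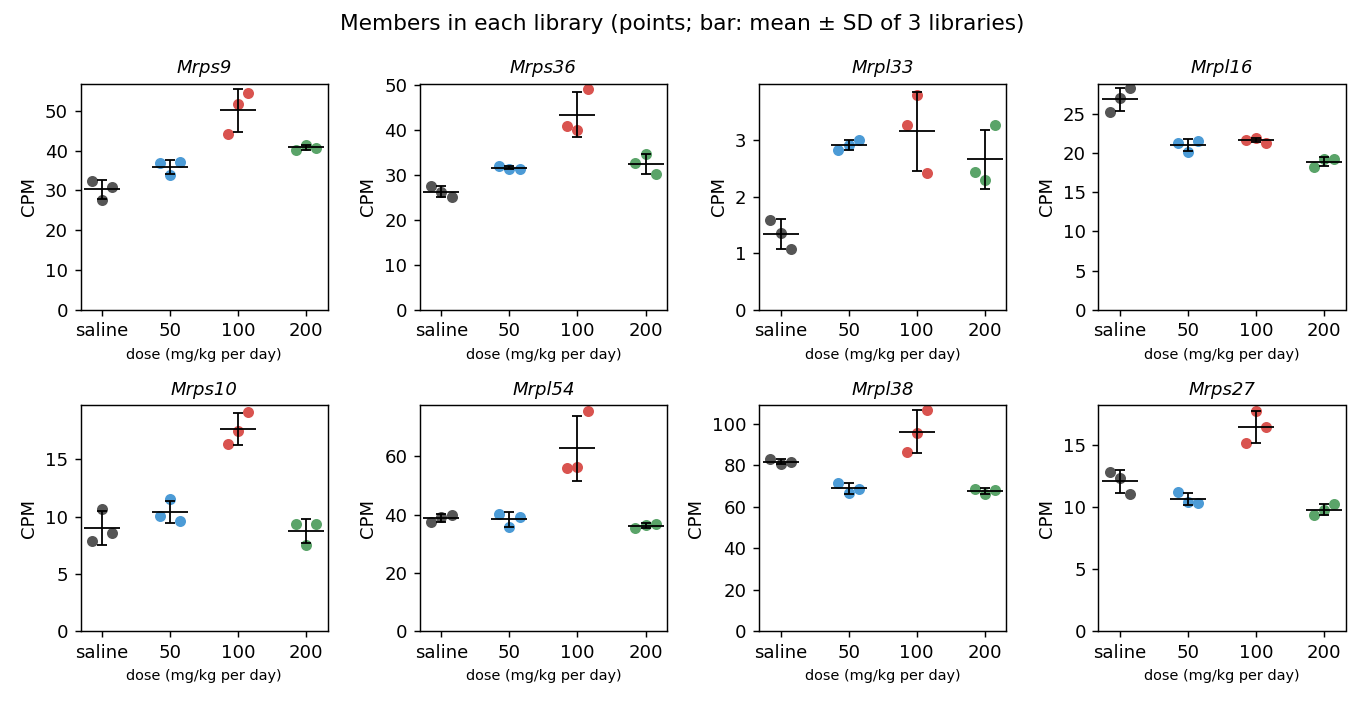
CPM of 8 members in each library by dose of extract in mg/kg per day, with points for libraries and bars for the mean ± SD of 3 libraries. Mrps9, Mrps36 and Mrpl33 are above saline at every dose and Mrpl16 is below it, Mrps10 and Mrpl54 are higher at 100 mg/kg alone, and Mrpl38 and Mrps27 are above saline at 100 mg/kg and below it at 200 mg/kg.

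Promoter sequences of these 4 members are shown because they moved together over doses or, for Mrpl16, against the rest, and that of Mrps27 because it moved in opposite directions at 2 doses. They are RefSeq windows of 300 bases on GRCm38.p6, 250 before to 50 after the annotated start, printed on the strand of the gene. Their positions are chr1:42850983-42851282 (plus) for Mrps9, chr13:100744610-100744909 (minus) for Mrps36, chr5:31613701-31614000 (plus) for Mrpl33, chr19:11770165-11770464 (plus) for Mrpl16 and chr13:99344536-99344835 (plus) for Mrps27. Capitals mark matches, on either strand, to the motifs searched.
Mrps9: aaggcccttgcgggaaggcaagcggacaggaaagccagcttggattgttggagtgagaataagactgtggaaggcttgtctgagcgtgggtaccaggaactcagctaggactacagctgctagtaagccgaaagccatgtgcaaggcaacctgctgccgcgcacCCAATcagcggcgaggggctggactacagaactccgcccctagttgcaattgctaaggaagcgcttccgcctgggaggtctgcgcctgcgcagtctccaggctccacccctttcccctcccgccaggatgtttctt
Mrps36: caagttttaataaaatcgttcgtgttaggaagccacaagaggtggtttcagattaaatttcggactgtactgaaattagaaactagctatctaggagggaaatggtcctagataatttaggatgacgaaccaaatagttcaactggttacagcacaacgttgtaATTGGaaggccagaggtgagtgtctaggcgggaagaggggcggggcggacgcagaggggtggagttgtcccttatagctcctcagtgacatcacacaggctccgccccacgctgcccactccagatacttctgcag
Mrpl33: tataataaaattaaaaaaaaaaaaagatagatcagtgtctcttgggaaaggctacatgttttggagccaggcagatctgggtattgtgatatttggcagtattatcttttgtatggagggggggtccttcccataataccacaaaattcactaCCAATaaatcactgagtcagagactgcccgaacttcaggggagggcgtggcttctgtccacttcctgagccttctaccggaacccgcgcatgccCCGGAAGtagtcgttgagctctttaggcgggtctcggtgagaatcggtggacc
Mrpl16: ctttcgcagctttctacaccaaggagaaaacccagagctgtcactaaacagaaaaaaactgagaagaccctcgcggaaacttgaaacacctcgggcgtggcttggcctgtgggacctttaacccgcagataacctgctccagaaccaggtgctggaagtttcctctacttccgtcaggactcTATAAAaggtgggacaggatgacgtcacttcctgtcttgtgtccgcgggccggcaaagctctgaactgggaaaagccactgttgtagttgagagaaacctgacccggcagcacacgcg
Mrps27: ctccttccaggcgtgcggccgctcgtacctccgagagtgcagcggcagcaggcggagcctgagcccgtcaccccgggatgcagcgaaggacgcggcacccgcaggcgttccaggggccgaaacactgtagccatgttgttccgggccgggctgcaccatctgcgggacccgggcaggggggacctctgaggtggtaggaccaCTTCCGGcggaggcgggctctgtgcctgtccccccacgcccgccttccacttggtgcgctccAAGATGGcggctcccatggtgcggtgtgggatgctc

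The motifs were the ETS core CCGGAAG, bound by factors that include GABP, the YY1 core AAGATGG, the core of the NRF1 palindrome, the CCAAT box CCAAT and the TATA box TATAAA, each with its reverse complement. Mrps9 and Mrps36 held a CCAAT box only, Mrpl33 a CCAAT box and an ETS core, Mrpl16 a TATA box, and Mrps27 an ETS core and a YY1 core. Windows were found for 69 of the 78 members, 75 in all. The ETS core stood in 34.7% of them, against 11.9% of the 20084 windows of all protein-coding genes. The YY1 core stood in 17.3% against 6.29%, the NRF1 core in 4.0% against 1.38%, the CCAAT box in 40.0% against 37.8% and the TATA box in 6.67% against 12.2%. Member windows held a median of 21 CpG sites, against 14 for all windows. Among tested members with windows, the ETS core was present in 20 of 52 that rose at 100 mg/kg and in 5 of 16 that did not. A match is a sequence in this window and was not tested as a binding site.

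Many members also start back to back with another gene. A gene transcribed away on the opposite strand started within 1000 bases of 23 of 78 members (29.5%), against 7.85% of protein-coding genes. Pairs that overlap by more than 200 bases at their starts, such as Mrpl46 and Mrps11, were left out of both counts. Partners included Sars2, a mitochondrial tRNA synthetase, beside Mrps12, and Ndufs6, a subunit of complex I, beside Mrpl36.

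Other members passed in opposite directions at different doses, and the share of all genes that did so was not counted. Mrpl38, a mitochondria-specific protein of the central protuberance, was at 83.2, 80.4 and 81.6 CPM in saline, 71.7, 66.6 and 68.4 CPM at 50 mg/kg, 86.5, 95.3 and 107 CPM at 100 mg/kg and 68.4, 66.1 and 68.3 CPM at 200 mg/kg. It fell at 50 and 200 mg/kg and rose at 100 mg/kg, without overlap with saline at any dose (log2 -0.25 ± 0.062, 0.23 ± 0.061 and -0.27 ± 0.062 SE at 50, 100 and 200 mg/kg). With the length trend removed its log2 fold change at 100 mg/kg was -0.0043, while the falls at 50 and 200 mg/kg stayed called. Mrpl37, also specific to mitochondria, fell 0.16 at 50 mg/kg and rose 0.24 at 100 mg/kg on the log2 scale. The fall had an adjusted p of 0.0487 and was lost without library 2 or 3 of saline, any library of 50 mg/kg, 2 of 100 mg/kg, or 1 or 2 of 200 mg/kg, with adjusted p-values up to 0.182.

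Mrps27, which contains pentatricopeptide repeats and binds RNA, was at 15.2, 17.8 and 16.5 CPM at 100 mg/kg and 9.36, 9.74 and 10.3 CPM at 200 mg/kg, against 12.87, 12.36 and 11.05 CPM in saline. It rose at 100 mg/kg (log2 0.45 ± 0.095 SE, adjusted p = 3.41e-04), or by 0.29 ± 0.096 SE with the length trend removed, and fell at 200 mg/kg (-0.30 ± 0.10 SE, adjusted p = 0.0405). Mrps14, a conserved protein of the small-subunit head, rose at 100 mg/kg (0.29 ± 0.078 SE) and fell at 200 mg/kg (-0.24 ± 0.082 SE, adjusted p = 0.0397). The falls at 200 mg/kg were near the threshold, and neither passed in DESeq2 (adjusted p = 0.0865 for Mrps27 and 0.0660 for Mrps14) or with library size alone as the scaling. That of Mrps27 also did not pass with the length trend removed (0.0653). That of Mrps27 was lost without library 1 or 2 of saline or any library of 200 mg/kg, with adjusted p-values up to 0.140. That of Mrps14 was lost without library 2 or 3 of saline, 3 of 50 mg/kg or any library of 200 mg/kg, with adjusted p-values up to 0.183.

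The remaining calls at 200 mg/kg were also close to the threshold. Mrps2 and Mrps17, conserved small-subunit proteins, rose 1.27-fold and 1.21-fold (adjusted p = 0.0188 and 0.0228). Mrps34, the least abundant tested member and one that overlaps Nme3 and Mapk8ip3, was at 0.751, 0.974 and 0.730 CPM at 200 mg/kg, against 1.23, 1.35 and 2.44 CPM in saline. Its log2 fold change of -1.04 ± 0.34 SE (adjusted p = 0.0336) was the largest of any member at that dose and rests on as few as 13 counts in a library. Mrpl46 fell by 0.28 on the log2 scale (adjusted p = 0.0370). In DESeq2 Mrps34 (adjusted p = 0.0676) and Mrpl46 (0.0653) did not pass, and Mrpl46 also did not with the length trend removed (0.0686) or with library size alone. Each of the 4 calls was lost without at least 1 library. These were library 1 of saline or 1 or 3 of 200 mg/kg for Mrps2 (adjusted p up to 0.118), and 1 or 2 of saline or any of 200 mg/kg for Mrps17 (up to 0.150). They were library 3 of saline or 1 or 3 of 200 mg/kg for Mrps34 (up to 0.251), and 1 or 3 of saline or any of 200 mg/kg for Mrpl46 (up to 0.153).

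Doses were also set against each other. At 100 against 50 mg/kg, 61 members rose, where 24.6% of all genes did, and 0 fell (0 at an unadjusted p under 0.05, and 0 in DESeq2). At 200 against 100 mg/kg, 64 members fell, where 25.2% of all genes did, and 0 rose (0 at an unadjusted p under 0.05, and 0 in DESeq2). Between 200 and 50 mg/kg, Mrpl35 alone rose, against 2.54% of all genes, and 0 fell, against 2.51% (6 at an unadjusted p under 0.05, and 0 in DESeq2). In all, 5.05% of genes passed. Without library 1 or 3 of 100 mg/kg 2 or 3 members fell, and 1 fell without library 1 of 200 mg/kg. Mrpl35, a conserved large-subunit protein, was at 58.8, 52.1 and 56.2 CPM at 200 mg/kg, against 40.4, 43.7 and 47.7 CPM at 50 mg/kg. Its saline libraries, at 50.5, 46.5 and 52.3 CPM, overlapped both groups. In the test of any difference among the 4 groups, 68 of 77 members passed (88.3%), where 64.3% of all genes did.

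Proteins of the mitochondrial ribosome that carry other names behaved in a similar way at 100 mg/kg, with 4 of 5 rising. Dap3, a GTP-binding protein of the small subunit, averaged 289 ± 16.6 CPM at 100 mg/kg and 216 ± 5.28 CPM in saline (SD, n = 3 each) and rose by 0.42 ± 0.046 SE on the log2 scale (adjusted p = 7.42e-08 in edgeR's quasi-likelihood test). Aurkaip1 rose by 0.58 ± 0.074 and Chchd1, both of the small subunit, by 0.30 ± 0.084. After removal of the length trend 2 of the 5 rose, Aurkaip1 by 0.30, and Chchd1 was at -0.10. Ptcd3, the fifth, averaged 43.6 ± 5.5 CPM at 100 mg/kg against 45.0 ± 2.7 CPM in saline, and rose at 200 mg/kg alone (0.37 ± 0.074 SE, adjusted p = 0.00102).

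Genes that build and serve the ribosome were called in both directions at 100 mg/kg, where 25.6% of all genes rose and 26.8% fell. Of 29 assembly factors, 9 rose and 5 fell (median log2 fold change 0.13), and 7 rose and 3 fell with the length trend removed. Tfb1m, which methylates the small ribosomal RNA, rose by 0.60 ± 0.092 SE, while Nsun4, a methyltransferase needed for the large subunit to join the small, fell by 0.47 (log2 -0.47 ± 0.051 SE, at 256 ± 23.5 CPM at 100 mg/kg and 356 ± 13.5 CPM in saline, SD, n = 3 each). The RNA helicases Dhx30 and Ddx24 fell at every dose. From the lowest dose to the highest, log2 fold changes of Dhx30 were -0.28 ± 0.041 SE, -0.17 and -0.13. Those of Ddx24 were -0.22 ± 0.049 SE, -0.26 and -0.14. Both calls at 200 mg/kg were lost with library size alone as the scaling. With the length trend removed, the fall of Dhx30 at 100 mg/kg shrank to -0.014 and was no longer called, while Ddx24 stayed called at -0.14. Of 15 translation factors, 1 rose and 3 fell, with a median of 0.0018. The recycling factor Mrrf rose (0.50 ± 0.062 SE), and Lrpprc, which stabilises mitochondrial messages, fell (-0.68 ± 0.073 SE). Tufm, the elongation factor that delivers tRNAs, fell at 50 and 200 mg/kg, and Mtif2, the initiation factor, rose at 200 mg/kg. Neither passed at 100 mg/kg. Of 20 genes that charge mitochondrial tRNAs, 5 rose and 4 fell at 100 mg/kg, with Vars2 at 8.62 ± 0.35 CPM at that dose against 3.68 ± 0.49 CPM in saline (log2 1.23 ± 0.15 SE) and Mars2 and Iars2 lower (-0.65 ± 0.052 and -0.66 ± 0.099 SE). Of the 20, 7 rose and 3 fell once the length trend was removed, with Mars2 at -0.22 and Iars2 at -0.43.

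Of 15 genes of mitochondrial transcription and RNA processing, 5 rose and 1 fell at 100 mg/kg, with a median log2 fold change of 0.17. Over all genes 25.6% rose and 26.8% fell. Supv3l1, an RNA helicase of the mitochondrial degradosome, rose by 0.40 ± 0.071 SE, and Fastk, a regulator of mt-Nd6 RNA, by 0.30 ± 0.059 SE. With the length trend removed 5 of the 15 rose and 2 fell (median 0.056), where 23.5% and 22.7% of all genes did. At 50 mg/kg Fastk fell (log2 -0.18), a call lost in DESeq2 and with library size alone as the scaling.

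The messages the mitochondrial ribosome translates did not rise with its proteins. Of 12 tested genes encoded by mitochondrial DNA, 3 fell at 50 mg/kg, 2 at 100 mg/kg and 8 at 200 mg/kg. Of all genes, 8.02%, 26.8% and 8.3% fell at these doses. The median log2 fold changes of the 12 were -0.10, -0.056 and -0.27. The complex I subunit gene mt-Nd5 averaged 656 ± 27 CPM at 100 mg/kg and 1034 ± 65 CPM in saline (SD, n = 3 each) and fell by 0.66 (log2 -0.66 ± 0.050 SE, adjusted p = 2.78e-10). mt-Nd1, another complex I subunit, was at 2230 ± 239 CPM at 100 mg/kg and 2426 ± 138 CPM in saline, which did not pass (adjusted p = 0.115), and it fell at 200 mg/kg (-0.33 ± 0.063 SE). Of the 12, 11 fell at 100 mg/kg once the length trend was removed, with a median of -0.36, where 22.7% of all genes fell. The listed genes are short, with a median longest transcript of 784 bases. All genes below 1000 bases had a median of 0.38 as counted, so the correction lowers short genes by construction. Whether the trend applies to genes of mitochondrial DNA was not tested.

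The rise at 100 mg/kg was not confined to the mitochondrial ribosome. Of 76 cytosolic ribosomal protein genes, 62 rose at 100 mg/kg, with a median log2 fold change of 0.42, against 58 of 77 members with a median of 0.35. Of 81 nuclear subunits of oxidative phosphorylation, 59 rose and 3 fell, with a median of 0.37. Over all genes 25.6% rose and 26.8% fell. Both sets are shorter than the members, with median longest transcripts of 1059 and 983 bases, in length classes where 46.2% and 60.0% of all genes rose. After removal of the length trend 30 cytosolic ribosomal genes rose and 7 fell (median 0.11) and 32 oxidative phosphorylation genes rose and 11 fell (median 0.066), against 40 and 2 members (median 0.24). At 200 mg/kg 21 cytosolic ribosomal and 15 oxidative phosphorylation genes fell, against 6 members and 8.3% of all genes. The length trend was fitted on the longest transcript only, and differences between these sets were not tested. Across the 12 libraries the median correlation of log2 CPM over 2926 pairs of members was 0.67, and it was 0.22 with group means removed. For cytosolic ribosomal genes these values were 0.84 and 0.57, and for all tested genes -0.0013 and 2.06e-04. These points share the same 12 libraries.

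Markers of several cell types moved at the same dose, and some moved at the other doses too. All 8 markers of round spermatids rose at 100 mg/kg, where they summed to 2261 to 2525 CPM, against 1948 to 1982 CPM in saline. Of 9 markers of elongating spermatids 6 rose and 1 fell, with sums of 23054 to 27710 CPM at 100 mg/kg against 21141 to 21584 CPM in saline. Of 11 Sertoli cell markers 5 fell, with sums of 1371 to 1463 CPM at 100 mg/kg against 1514 to 1534 CPM in saline. Sertoli sums were lower still at 50 mg/kg (1244 to 1305 CPM) and at 200 mg/kg (1137 to 1144 CPM). Of 9 spermatocyte markers 2 rose and 4 fell at 100 mg/kg. Their sums, of 7047 to 7465 CPM against 6519 to 6584 CPM in saline, were mostly Ldhc, with a mean of 4558 CPM over all libraries. Ldhc and Spo11 rose (log2 0.31 and 0.52), while Sycp1, Sycp3, Piwil1 and Hormad1 fell (-1.56, -0.89, -0.65 and -0.44). Leydig cell markers summed to 1133 to 1267 CPM at 100 mg/kg against 1270 to 1313 CPM in saline, and 3 of 7 fell. At 50 mg/kg Leydig sums were 1226 to 1295 CPM and at 200 mg/kg 1180 to 1232 CPM. Lymphocyte markers, of low level, summed to 23.3 to 26.3 CPM at 100 mg/kg against 12.6 to 15.1 CPM in saline, with 1 of 3 tested markers higher. Blood markers summed to 41.4 to 51.8 CPM at 100 mg/kg against 31.4 to 34.3 CPM in saline, with 2 of 4 tested higher. All these marker values are as counted, with the length trend left in. The part of the markers in the result for the members was not tested.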

How the data were processed

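The submitters deposited whole-number read counts per gene for 12 libraries, per the deposited table, made with a stranded polyA kit per the labels' protocols. Trimmomatic, STAR, featureCounts, DESeq2 and the builds mm10 and GRCm38 are named in the submitters' processing notes. Versions, the annotation and how strand and multiply mapped reads were handled: not given in the sources used here. Groups came from the titles, because the descriptions repeat a replicate number in the treated groups.

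Counts were tested in R 4.3.3 with edgeR 4.0.16 (filterByExpr, TMM, robust quasi-likelihood fit of the 4 groups, 8 residual degrees of freedom), with Benjamini-Hochberg adjustment over 15682 genes and a threshold of 0.05. Standard errors (SE) were taken as |log2 fold change| over the root of the F statistic. Other settings tried were DESeq2 1.42.0, RLE factors, no scaling beyond library size, 2 other filters, a fit of 2 groups, replicate number as a block, leaving out each library, and a length correction (lowess trend on transcript length, span 0.3, as an offset per library). Added after seeing the data were the block with the length correction, the length correction without library 3 of 100 mg/kg, and a fit without the 100 mg/kg libraries. Tested on simulated data modelled on 50 mg/kg against saline (15503 genes), the fit found 34% of the changes set at 1.2-fold, 74% at 1.5-fold and 88% at 2-fold. False calls made up 5.73%.

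Lengths and positions came from GENCODE M21 on GRCm38. The members and lists were chosen with earlier results of these data known. Members were named by a rule: the 6 with the smallest p in each direction and the largest change in each comparison with saline, the 3 highest and 3 lowest per kilobase, those passing in the same or opposite directions across doses, and 12 members whatever their result; from other lists, up to 4 genes with the smallest p. Mrpl1, Mrpl19, Mrpl24, Mrpl35, Mrps25, the spermatocyte markers and the genes given for overlaps, pseudogenes and partners were named after their values were seen. Gtpbp5, Mtrfr, Mtres1 and Prorp were not found under those names.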

Additional observations from a re-analysis of the deposited data

Results flagged for a closer look

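Some members differed between doses in a test of that difference, in directions that were opposite against saline or, for Mrpl35, with a difference between 200 and 50 mg/kg. Mrpl38 was higher at 100 than at 50 mg/kg by 0.48 ± 0.061 SE on the log2 scale (adjusted p = 6.11e-07 in edgeR's quasi-likelihood test) and lower at 200 than at 100 mg/kg (-0.51 ± 0.061 SE, adjusted p = 2.60e-07). Mrpl37 was higher at 100 than at 50 mg/kg by 0.40 ± 0.056 SE (adjusted p = 2.09e-06). Mrps14 was lower at 200 than at 100 mg/kg (-0.54 ± 0.080 SE, adjusted p = 5.06e-06), as was Mrps27 (-0.75 ± 0.098 SE, adjusted p = 7.60e-07). Mrpl35 was higher at 200 than at 50 mg/kg by 0.34 ± 0.066 SE (adjusted p = 0.00195). The share of all genes called was 51.5% at 100 against 50 mg/kg, 53% at 200 against 100 mg/kg and 5.05% at 200 against 50 mg/kg. With the length trend removed Mrpl38 was at -0.0043 at 100 mg/kg against saline on the log2 scale.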

How the results depend on the processing

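At 100 mg/kg against saline the number of members that rose stayed within 1.5 times of 58 in every alternative run, and with the replicate block it was 55. The replicate numbers do not pair the libraries (correlations of same-numbered libraries from -0.129 to 0.048 over 18 pairs), and the block moved no count of calls by over 1.5 times. Of 40 calls on named members, 24 held in all alternatives and 16 were lost in at least 1. With the length correction, alone or with the block, 2 members fell at 100 mg/kg; 40 rose and 1 fell at 100 against 50 mg/kg; 1 rose at 200 against 100 mg/kg; and 2 fell at 200 against 50 mg/kg. The log2 fold change of Mrpl38 at 100 mg/kg turned to -0.0043, to -0.0046 with the block and to -0.039 without library 3 of that dose, and that of Chchd1 to -0.10, -0.10 and -0.057; the trend on length is taken out by construction. With only the 2 groups compared, 5 members rose and 5 fell at 50 mg/kg, 8 rose and 10 fell at 200 mg/kg (4439 genes called), and 2 rose and 2 fell at 200 against 50 mg/kg (1563 genes). Without the 100 mg/kg libraries, 5 rose and 6 fell at 50 mg/kg, 10 fell at 200 mg/kg, and 3 fell at 200 against 50 mg/kg (1689 genes). Library size alone gave 5 rises at 50 mg/kg, 3 falls at 200 mg/kg and 1 fall at 200 against 50 mg/kg; DESeq2 gave 2 falls at 200 mg/kg, and no count filter 1 fall at 200 against 50 mg/kg. The median level was 18.2 CPM per kilobase with median transcript lengths. The cause of these shifts was not tested. Leaving out 1 library gave 1714 to 4013 genes, 1 to 5 rises and 2 to 6 falls among members at 50 mg/kg; 1941 to 4181 genes, 3 to 6 rises and 2 to 10 falls at 200 mg/kg; and 462 to 1690 genes and 0 to 3 falls at 200 against 50 mg/kg. The length correction without library 3 of 100 mg/kg gave 4299 genes, 5 rises and 6 falls at 50 mg/kg, 2 falls at 100 mg/kg, 1 fall at 100 against 50 mg/kg, 1771 genes, 2 rises and 3 falls at 200 against 50 mg/kg, and 1 rise and 40 falls at 200 against 100 mg/kg. The 3 libraries of each group limit what small changes can be seen.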
